A study of Mus musculus with 9 samples.

Results

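The nuclear genes that encode subunits of the oxidative phosphorylation complexes were followed across mouse hearts that carry none, 1 or 2 copies of an edited Rbm20 allele. Members were chosen by gene name in the deposited exonic-part table. Names beginning with Ndufa, Ndufb, Ndufc, Ndufs, Ndufv, Uqcr, Atp5 or Cox4 to Cox8 were taken, as were Sdha, Sdhb, Sdhc, Sdhd and Cyc1, while assembly factors (Ndufaf) and names with -ps were dropped. This gave 88 genes of 54660 gene identifiers, with 39 in complex I, 4 in complex II, 9 in complex III, 21 in complex IV and 15 in complex V. Ndufa4 and Ndufa4l2 were counted in complex IV, where the Ndufa4 protein is now placed. A further 5 subunit genes (Atp5g2, Ndufb8, Ndufb2, Ndufb9 and Atp5o) overlap another gene and carry a joined identifier with no name of their own, so they are not members.

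Total RNA of heart, from mice aged 12 weeks, was sequenced in 9 libraries, 3 each from wild-type mice and from mice heterozygous or homozygous for the edited allele. That knock-in allele, made with CRISPR/Cas, lacks 2 bases of Rbm20 and shifts its reading frame at codon 374. No other allele or treatment is named for any group, and strain and sex are not given in the sources used here. Whether each library came from its own mouse is not stated, and p-values therefore reflect only the spread among the 9 libraries, which may be technical.

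Oxidative phosphorylation is the process by which mitochondria make ATP from electrons drawn from food. Complexes I and II pass electrons from NADH and succinate to ubiquinone, complex III passes them on to cytochrome c, and complex IV gives them to oxygen. Complexes I, III and IV pump protons across the inner membrane, and complex V, the ATP synthase, lets them flow back to make ATP. Heart muscle depends on this process more than most tissues do, and it uses muscle forms of several complex IV subunits. Most subunits are nuclear-encoded, and a small core is encoded by the mitochondrial genome.

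Rbm20 encodes an RNA-binding protein that controls splicing in heart muscle. Its summed level was 105, 104 and 132 CPM (counts scaled to a common library size) in wild-type, 85.5, 68.4 and 90.2 CPM in heterozygous and 66.0, 51.8 and 54.7 CPM in homozygous libraries, and the 3 groups did not overlap. Only the difference of homozygous from wild-type passed the test (log2 fold change -0.98, adjusted p = 0.00428, edgeR). Heterozygous against wild-type was at -0.48 (adjusted p = 0.9996, edgeR) and homozygous against heterozygous at -0.50 (adjusted p = 0.133, edgeR). Inclusion reads, which are reads assigned to an exonic part, summed to between 296629818 and 323205269 per library, and the 88 members took between 4.08% and 4.64% of them. Of 10 cardiomyocyte markers listed, 9 were measured, and their summed level was 72901 to 83573 CPM in wild-type, 70979 to 82748 CPM in heterozygous and 88352 to 100330 CPM in homozygous libraries. Summed atrial markers, all 6 measured, were at 106 to 187 CPM in wild-type and 402 to 547 CPM in homozygous libraries, and at 56.5, 102 and 2124 CPM in heterozygous libraries 1, 2 and 3. The homozygous sum was nearly all Nppa, the atrial natriuretic peptide gene, which ventricles under stress are also known to express: it was at 86.5, 89.7 and 86.4 CPM in wild-type and 542, 520 and 382 CPM in homozygous libraries (log2 fold change 2.46; adjusted p = 0.120, edgeR). The other 4 tested atrial markers, Myl7, Sln, Myl4 and Dkk3, had log2 fold changes of -2.73, -2.77, -2.28 and -1.46 for homozygous over wild-type, and none was called. The median over the 5 tested markers was -2.28, so the sum and the median differ in sign. Myl7 and Sln were highest in heterozygous library 3, at 357 and 74.1 CPM, and Bmp10 was at 0 in all wild-type and homozygous libraries. In whole tissue, fewer cells of a type and less RNA per cell cannot be told apart.

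Sequences are shown for the 2 members called in the test below (their promoters) and for the 2 alternative exons that the splicing results describe. The promoters run from 250 bases before to 50 bases after the annotated start and come from RefSeq on build GRCm38.p6. Capitals mark a match to any of 5 motifs searched on both strands: GCGCATGC (NRF1), CCGGAAG (the ETS site bound by GABPA), TCAAGGTCA (ERR), AAGATGGCG (YY1) and GGGCGG (SP1). The Ndufb3 promoter lies at chr1:58586147-58586446 on the plus strand and holds none of these letters. The Uqcrh promoter lies at chr4:116075021-116075320 on the minus strand and holds 1 match, to the ETS letters on the opposite strand.
Ndufb3 promoter: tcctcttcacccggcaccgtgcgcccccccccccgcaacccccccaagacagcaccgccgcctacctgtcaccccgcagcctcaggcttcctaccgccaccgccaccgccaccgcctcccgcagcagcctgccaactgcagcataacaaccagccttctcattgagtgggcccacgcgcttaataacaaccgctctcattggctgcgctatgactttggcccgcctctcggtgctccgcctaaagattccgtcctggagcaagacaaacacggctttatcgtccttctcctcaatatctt
Uqcrh promoter: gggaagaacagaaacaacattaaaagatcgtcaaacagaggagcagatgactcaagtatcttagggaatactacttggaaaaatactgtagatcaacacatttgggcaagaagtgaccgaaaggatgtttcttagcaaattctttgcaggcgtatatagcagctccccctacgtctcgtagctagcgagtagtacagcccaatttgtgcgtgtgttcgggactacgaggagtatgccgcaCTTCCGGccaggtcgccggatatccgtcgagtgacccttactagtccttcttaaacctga

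Of the 88 members, 67 had a RefSeq promoter in the table used. The ETS letters stood in 17 of them (25.4%) and in 9.93% of the promoters of all 27025 genes in that table. The NRF1 letters stood in 9 members (13.4%; 3.05% of all genes), the YY1 letters in 7 (10.4%; 1.64%), the ERR letters in 2 (2.99%; 0.466%) and the SP1 letters in 27 (40.3%; 38.2%). All genes in that table served as background, with no matching to the members for expression or base content. A match describes letters in the window and says nothing about binding.

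The alternative exons come from GENCODE M21 transcripts on build GRCm38, printed in the sense of the transcript. Exon 3 of the long Ndufv3 transcript (Ndufv3-201) spans 1092 bases at chr17:31527310-31528401 on the plus strand, and its first 240 bases are printed. Capitals mark TCTT, the DNA form of the UCUU motif that RBM20 is known to bind, searched on the transcribed strand only. The printed stretch holds 1 copy, and 58.3% of 14268 internal coding-transcript exons of at least 240 bases hold 1 or more in their first 240 bases. The whole exon holds 7 copies, a count with no background of matched length. Exon 9 of Atp5c1-202, printed whole, spans 37 bases at chr2:10056770-10056806 on the minus strand and holds no copy.
Ndufv3 exon 3, first 240 bases: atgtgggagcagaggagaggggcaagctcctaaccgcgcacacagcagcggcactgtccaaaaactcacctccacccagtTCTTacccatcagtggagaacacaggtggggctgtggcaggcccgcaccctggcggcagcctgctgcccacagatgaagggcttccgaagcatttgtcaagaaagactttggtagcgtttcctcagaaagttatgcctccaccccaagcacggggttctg
Atp5c1 exon 9: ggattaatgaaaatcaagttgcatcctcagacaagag

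At baseline, ATP synthase and complex IV genes led. Levels between genes are given as RPKM (CPM per kb of length) over constant exonic parts (mean PSI of at least 0.95, where PSI is the share of transcripts that include a part). In wild-type hearts the highest was Atp5b, the catalytic beta subunit of ATP synthase, at 975 ± 33.8 RPKM (SD, n = 3). Atp5a1, the alpha subunit beside it, was at 651 ± 21.6 and Cox4i1, a large nuclear-encoded subunit of complex IV, at 639 ± 19.97 RPKM, and this neighbouring pair did not differ beyond their spread. Cox6a2, the heart and skeletal muscle form of subunit 6a, came next by mean at 535 ± 47.5 RPKM. Its libraries overlapped those of Atp5g3, another ATP synthase gene, at 503 ± 11.5 RPKM.

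High genes of the other complexes had lower levels. Complex II was led by Sdhb, its iron-sulfur subunit, at 284 ± 12.2 RPKM, and by Sdha, the flavoprotein that oxidises succinate, at 193 ± 12.3. Cyc1 (cytochrome c1) and Uqcrc1 (a core protein of complex III) stood at 280 ± 6.74 and 280 ± 17.01 RPKM and were not separated. In complex I, Ndufb10, an accessory subunit of the membrane arm and among its highest genes, was at 187 ± 7.07 RPKM. At the other end, Cox7b2 stood at 0.0455 ± 0.0160 and Cox6b2, a form best known from testis, at 0.832 ± 0.270 RPKM.

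Homozygous hearts were compared with wild-type hearts first. Ndufb3, an accessory subunit of the membrane arm of complex I, and Uqcrh, the hinge protein that sits beside cytochrome c1 in complex III, rose, and no member fell by the test. They are 2 of 83 members tested, in a comparison where 4.39% of 22049 genes were called (1.87% higher and 2.52% lower), so the share of members called was near the background. Small positive values were more common than calls: 75 of 83 members had a positive log2 fold change, against 49.7% of all genes tested, with a median of 0.29 over the members and -0.003 over all genes. All 3 homozygous libraries lay above all 3 wild-type libraries for 52 members (62.7%; 14.4% of all genes), and below them for 3, Sdha, Atp5a1 and Cox6b2 (16.1% of all genes). At an unadjusted p under 0.05 there were 44 members (53.0%) and 5001 of all genes (22.7%).

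Ndufb3 stood at 97.8, 91.5 and 88.6 CPM in wild-type, 113, 121 and 89.1 CPM in heterozygous and 129, 145 and 142 CPM in homozygous libraries. Every homozygous library was above every other library, while 1 heterozygous library lay within the wild-type range. The log2 fold change of homozygous over wild-type was 0.58 (SE 0.113; Benjamini-Hochberg adjusted p = 0.0200, edgeR's quasi-likelihood test). Uqcrh stood at 467, 514 and 474 CPM in wild-type, 565, 597 and 490 CPM in heterozygous and 578, 696 and 656 CPM in homozygous libraries. The homozygous values lay above all wild-type values and overlapped the heterozygous ones. Its log2 fold change was 0.41 (SE 0.101; adjusted p = 0.0471, edgeR's quasi-likelihood test).

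Both calls depend on single libraries. Without wild-type library 2 or 3, or homozygous library 2 or 3, the adjusted p of Ndufb3 was 0.0820, 0.0942, 0.0784 and 0.0765. For Uqcrh the adjusted p was 0.121, 0.0963 and 0.171 without wild-type library 1, 2 or 3, 0.0694 without heterozygous library 1, and 0.169 and 0.130 without homozygous library 2 or 3. The serial numbers in the library names fall into 2 runs, and what a run stands for is not stated. The second run holds wild-type libraries 2 and 3 and heterozygous library 3 and no homozygous library, so within it there is no value for this comparison. With the run as a term the log2 fold changes were 0.41 for Ndufb3 (adjusted p = 0.132) and 0.35 for Uqcrh (adjusted p = 0.246). With DESeq2, 21 members were called higher and 1 lower, in a fit that called 11.7% of all genes.

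**Figure D1:**
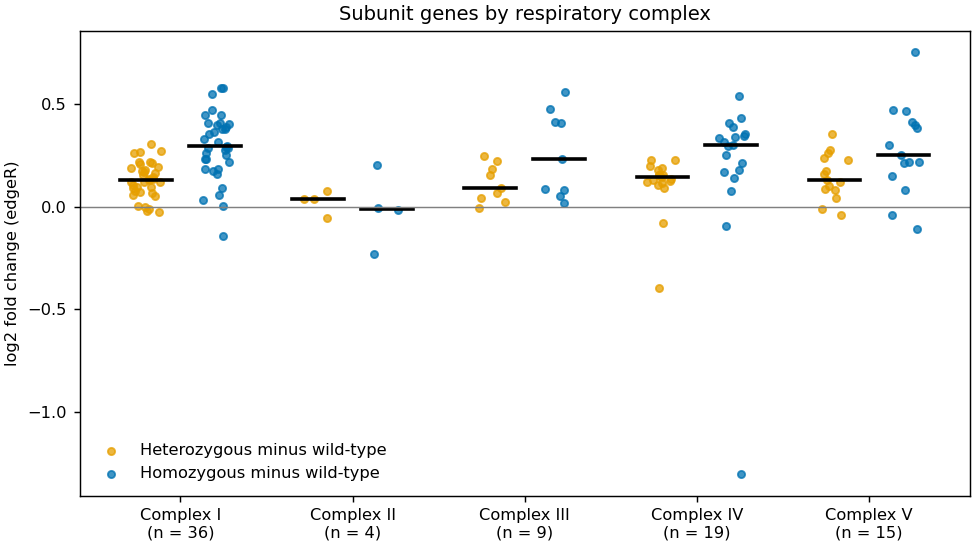
Log2 fold changes from edgeR of the 83 tested subunit genes (points) by complex, for heterozygous minus wild-type (orange) and homozygous minus wild-type (blue) hearts, with the median as a black bar. The homozygous medians of complexes I, III, IV and V lie between 0.23 and 0.30 and that of complex II at -0.01; the lowest point is Cox6b2 at -1.31.

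By complex, the plot of fold changes shows the lowest median in complex II, a difference between complexes that was not tested. The complex II genes Sdha, Sdhb, Sdhc and Sdhd have 2900, 1142, 3159 and 1231 bases in constant exonic parts. Of the 81 members with a mean of at least 5 CPM, 39 have up to 800 bases. Non-member genes had a median log2 fold change of 0.29 up to 800 bases and of -0.07 above 2000 bases. The part of length in the low complex II median was not tested. Summed over its 39 genes, complex I was at 9956, 9910 and 9605 CPM in wild-type and 10521, 12401 and 11086 CPM in homozygous libraries, a difference of 15.4%, and the groups did not overlap. The median log2 fold change over its 36 tested genes was 0.29, and 35 of them were positive. Complex II summed to 2570 ± 67.3 CPM (SD, n = 3) in wild-type hearts and 2485 ± 73.5 CPM in homozygous ones, with overlapping libraries and a median of -0.01. Complex III summed to 5365 ± 71.0 and 6029 ± 478 CPM, complex IV to 7363 ± 202 and 9360 ± 1151 CPM, and complex V to 15101 ± 140 and 16110 ± 1090 CPM, with medians of 0.23, 0.30 and 0.25. The differences in summed CPM were 12.4% for complex III, 27.1% for complex IV and 6.68% for complex V. Without homozygous library 2 they were 9.97% for complex I, 7.49% for complex III, 18.3% for complex IV and 3.28% for complex V, and without homozygous library 1 complex V was at 10.5%. Libraries of complexes III and IV did not overlap between the groups, while in complex V the lowest homozygous library, at 14969 CPM, lay within the wild-type range.

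Within complex I, the tested genes of the membrane-arm accessory group Ndufb had log2 fold changes of 0.29 to 0.58. Among them were Ndufb10 at 0.37 (adjusted p = 0.152, edgeR) and Ndufb4 at 0.41 (adjusted p = 0.136, edgeR). High values were not particular to that group. The tested Ndufa genes of complex I ran from 0.03 (Ndufa9) to 0.58 (Ndufa7; adjusted p = 0.0616, edgeR), the highest of the complex. Of the core subunits of the matrix arm, Ndufv1, which binds NADH, was at 0.06, Ndufs3 at 0.16, Ndufv2 at 0.18, Ndufs7 at 0.19 and Ndufs8 at 0.22. Ndufs1, a large iron-sulfur core subunit, was at -0.14 and was the 1 tested gene of complex I with a negative value. These 6 had adjusted p-values of 0.246 to 0.693 (edgeR), and a difference between core and Ndufb genes was not tested. Ndufb4b and Ndufb4c, near-copies of Ndufb4, were at 6.14 to 11.3 CPM in all libraries, and reads could be shared among the 3 genes, so their values are uncertain. Processed copies with -ps names could share reads of other members in the same way.

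In complex II, Sdha was at 1279, 1290 and 1431 CPM in wild-type and 1125, 1063 and 1225 CPM in homozygous libraries, so the groups did not overlap. Its log2 fold change of -0.23 did not pass the test (SE 0.0961; adjusted p = 0.188, edgeR). Sdhb stood at 748, 778 and 713 CPM in wild-type and 804, 959 and 815 CPM in homozygous libraries, again with no overlap and in the opposite direction (log2 fold change 0.20; SE 0.103; adjusted p = 0.269, edgeR). Sdhc and Sdhd, which anchor the complex in the membrane, had log2 fold changes of -0.01 each. In complex III the large core protein Uqcrc1 was at 0.02 and Cyc1 at 0.09, with adjusted p-values of 0.930 and 0.599 (edgeR). The 2 highest values of the complex belonged to small subunits, Uqcr10 at 0.56 (adjusted p = 0.0751) and Uqcrq at 0.48 (adjusted p = 0.134), which were named after their values were seen.

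In complex V the catalytic pair had values near 0, and 2 smaller subunits had higher ones, among 15 tested genes of which 13 were positive. The pair, Atp5b and Atp5a1, has 1916 and 2471 bases in constant exonic parts, and Atp5j and Atp5e have 814 and 421. Fold changes also fell with length among non-member genes (Spearman rho -0.47), and the part of length in this contrast was not tested. Atp5b was at 4469, 4583 and 4785 CPM in wild-type and 4296, 4637 and 4531 CPM in homozygous libraries, which overlap (log2 fold change -0.04; SE 0.0718; adjusted p = 0.796, edgeR). Atp5a1 was at 3470, 3469 and 3673 CPM against 3146, 3252 and 3443 CPM, just apart (log2 fold change -0.11; SE 0.0727; adjusted p = 0.411, edgeR). Atp5j, a peripheral-stalk subunit known as coupling factor 6, was at 486, 503 and 479 CPM against 584, 714 and 639 CPM, with a log2 fold change of 0.40 (SE 0.108; adjusted p = 0.0624, edgeR). Atp5e, the epsilon subunit and the member with the highest log2 fold change, was at 280, 256 and 250 CPM against 366, 584 and 374 CPM. Its groups did not overlap, yet homozygous library 2 stood far above the other 2, and the log2 fold change of 0.75 (SE 0.208) had an adjusted p of 0.0660 (edgeR). The 5 subunit genes under joined identifiers had log2 fold changes of 0.29 to 0.36 and adjusted p-values of 0.102 to 0.163 (edgeR), counted with their overlapping neighbours.

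Complex IV is the complex in which tissue forms of the same subunit can be compared. Cox6a2 was at 657, 551 and 596 CPM in wild-type and 778, 1028 and 823 CPM in homozygous libraries, with no overlap (log2 fold change 0.54; SE 0.144; adjusted p = 0.0594, edgeR). Its widely expressed form Cox6a1 was at 49.4, 52.4 and 46.8 CPM against 52.1, 67.9 and 52.3 CPM, which overlap (log2 fold change 0.21; adjusted p = 0.393, edgeR). Per length, the Cox6a2 to Cox6a1 ratio was 15.6, 12.3 and 14.98 in wild-type, 16.1, 14.2 and 13.2 in heterozygous and 17.6, 17.8 and 18.5 in homozygous libraries. The homozygous ratios lay above all others, and the log2 difference from wild-type was 0.33 (exact permutation test, two-sided p = 0.1, the smallest that 3 against 3 allows; 0.175 adjusted over 7 pairs).

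The other muscle forms gave mixed ratios. The Cox8b to Cox8a ratio per length, muscle form over common form, was 5.40 ± 0.0780 in wild-type and 6.17 ± 0.313 in homozygous hearts (SD, n = 3), again without overlap (exact permutation p = 0.1; adjusted 0.175). The ratio of Cox7a1, the muscle form, to Cox7a2 was 1.45 ± 0.182 for wild-type libraries, against 1.28 ± 0.126 for homozygous ones, and overlapped (exact permutation p = 0.5; adjusted 0.583). Cox7a1 itself had a log2 fold change of 0.08 and Cox7a2 of 0.25. Cox7a2l, which takes part in joining complexes III and IV, had a ratio to Cox7a2 of 0.410 ± 0.0144 for wild-type libraries, against 0.387 ± 0.0196 for homozygous ones (exact permutation p = 0.1; adjusted 0.175). No ratio of heterozygous to wild-type libraries had an adjusted p under 0.9.

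The rarer forms stayed rare in all groups. Cox4i2, a form known from lung, was at 0.00636 ± 0.000616 of Cox4i1 per length in wild-type and 0.00620 ± 0.000365 in homozygous hearts (exact permutation p = 0.7). Ndufa4l2, known from hypoxic cells, was at 0.0213 ± 0.00192 and 0.0197 ± 0.00195 of Ndufa4 (exact permutation p = 0.4). Cox6b2 was at 2.22, 2.17 and 1.205 CPM in wild-type, 1.31, 2.28 and 1.70 CPM in heterozygous and 0.719, 1.18 and 0.362 CPM in homozygous libraries. Each homozygous value lay below every other library, and the log2 fold change of -1.31 (SE 0.390) had an adjusted p of 0.0829 (edgeR), with 0.000263 to 0.204 over the 21 alternatives and a value under 0.05 in 5 of them. Its common form Cox6b1 was at 475, 414 and 416 CPM in wild-type and 532, 665 and 566 CPM in homozygous libraries, also without overlap, at a log2 fold change of 0.43 (adjusted p = 0.102, edgeR).

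**Figure D2:**
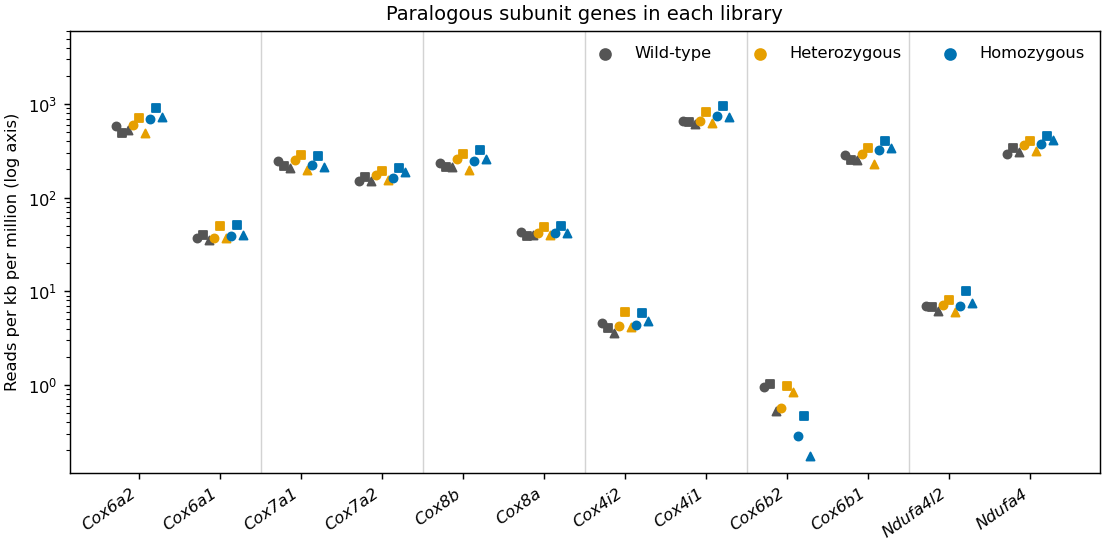
RPKM (log axis) of 6 pairs of complex IV subunit genes in each library, coloured by genotype, with circles, squares and triangles for libraries 1, 2 and 3. Cox6a2 lies more than 10 times above Cox6a1 in every library, and Cox6b2 is lowest in the homozygous libraries.

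The plot of paired genes shows how far apart the forms are within a heart: the distance between the forms of a pair is larger than any distance between genotypes, except for Cox7a1 and Cox7a2, which lie close together.

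Heterozygous against wild-type hearts, no member passed the test. Of 83 members, 0 were called by edgeR's quasi-likelihood test, which called 0 of 22049 genes (0%). At an unadjusted p under 0.05 there were 0 members and 712 genes. DESeq2 called 0 members and 22 genes. The log2 fold changes were nevertheless mostly positive, in 74 of 83 members with a median of 0.13, against 49.2% of all genes and a median of -0.004. No member had groups that did not overlap (3.83% of all genes had all heterozygous above all wild-type libraries, and 4.43% below).

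The members with the smallest p in their complexes show the overlap. Ndufb4 was at 117, 122 and 109 CPM in wild-type and 138, 173 and 119 CPM in heterozygous libraries, with library 3 inside the wild-type range (log2 fold change 0.30). Ndufa4, a complex IV subunit, was at 756, 865 and 781 CPM against 928, 1023 and 804 CPM (0.20), and Atp5j at 486, 503 and 479 CPM against 588, 638 and 493 CPM (0.23). Uqcrh (0.18) and Sdhb (0.08) also had heterozygous libraries 1 and 2 above the wild-type range, with library 3 within it for Uqcrh and below it, at 703 CPM, for Sdhb. For Sdhb the value was -0.006 without heterozygous library 2.

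**Figure D3:**
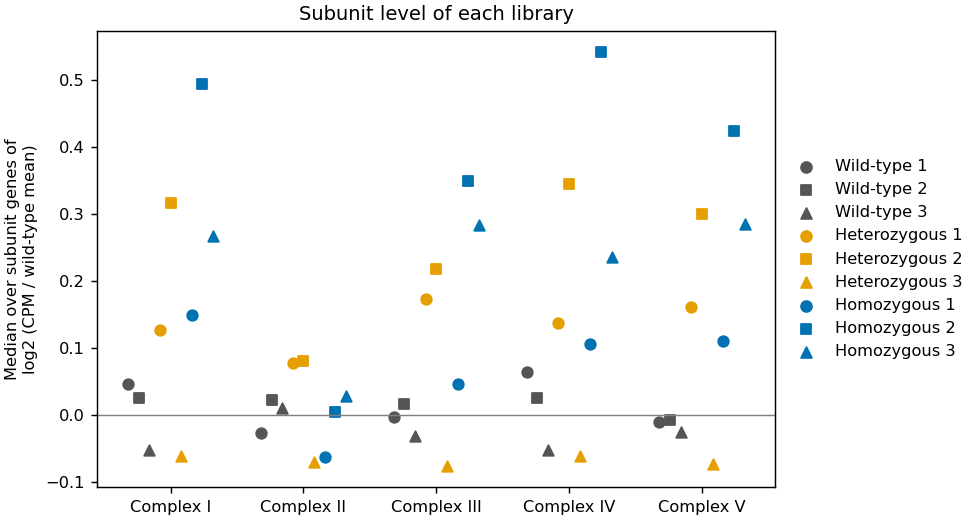
Median over the tested subunit genes of each complex of log2 (CPM over the wild-type mean), 1 point per library, coloured by genotype, with circles, squares and triangles for libraries 1, 2 and 3. Heterozygous library 2 and homozygous library 2 are highest in their groups in complexes I, III, IV and V, and heterozygous library 3 lies below the wild-type libraries.

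The libraries of a genotype were not alike. Over all tested members, the median log2 ratio to the wild-type mean was 0.14, 0.31 and -0.07 in heterozygous libraries 1, 2 and 3, and 0.14, 0.46 and 0.23 in homozygous libraries 1, 2 and 3. The wild-type libraries were at 0.01, 0.02 and -0.04, as the plot by library shows. Heterozygous library 3 was lowest of the 9 and also had the highest summed atrial markers, whose part in the result was not tested. Without it the median log2 fold change of heterozygous over wild-type was 0.22, and without heterozygous library 2 it was 0.03. Without homozygous library 2 the homozygous against wild-type median was 0.18, with 0 members called.

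Homozygous against heterozygous hearts, again no member passed the test. Of 83 members, 0 were called by edgeR's quasi-likelihood test, in a comparison with 0.948% of all genes called (0.508% higher and 0.44% lower), and 9 members (10.8%) and 3104 of all genes (14.1%) had an unadjusted p under 0.05. DESeq2 called 1 member, Cox6b2, lower, and 4.31% of all genes. With the replicate number as a block, 0 members and 1.83% of all genes were called. The median log2 fold change was 0.14, and 74 members were positive (50.3% of all genes). All 3 homozygous libraries lay above all heterozygous ones for 4 members (8.39% of all genes) and below for 1, Cox6b2 (9.25% of all genes). The heterozygous and wild-type libraries serve in 2 comparisons each, so these comparisons share samples. The log2 fold changes of homozygous over heterozygous were 0.36 for Ndufb3 (adjusted p = 0.190), 0.22 for Uqcrh (0.350), 0.40 for Atp5e (0.420), -0.17 for Sdha (0.443) and -1.23 for Cox6b2 (0.194), all by edgeR.

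Exon length moved with the members' differences. Subunit genes are short, and among the 81 members with a mean of at least 5 CPM, the Spearman rho between the log2 fold change of homozygous over wild-type and the constant exon length was -0.53. It was -0.47 over 9773 other genes from the same libraries, which share depth and preparation. The 39 members of up to 800 bases had a median log2 fold change of 0.36, and 453 other genes of that length had 0.29. The 7 members above 2000 bases had a median of -0.01, and 7020 other genes had -0.07. Genes of the cytosolic ribosome, which are also short, had 0.47 (n = 62).

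**Figure D4:**
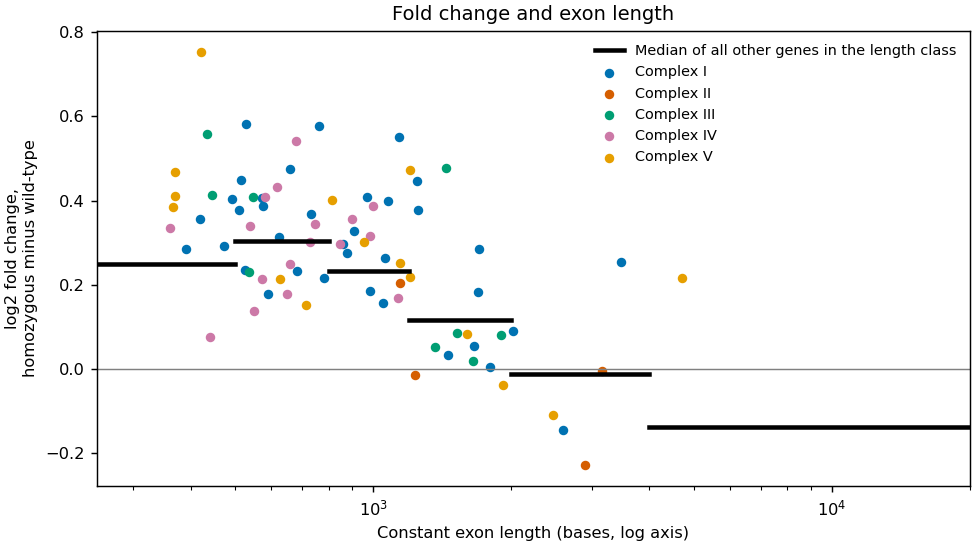
Log2 fold change of homozygous minus wild-type hearts against constant exon length (log axis) for the 81 subunit genes with a mean of at least 5 CPM (points, coloured by complex), with the median of all other genes in each of 6 length classes as black bars. The member medians fall with the bars, from 0.40 in the shortest class to -0.06 in the class above 2000 and up to 4000 bases, where the other genes are at 0.25 and -0.01. The 1 member above 4000 bases, Atp5g1, lies off its bar, at 0.22 against -0.14.

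The plot against length shows members on both sides of the medians of other genes of their length. Per library, other genes of up to 800 bases had medians of 0.19, 0.49 and 0.22 in homozygous libraries 1, 2 and 3 and of 0.11, 0.27 and -0.03 in heterozygous libraries 1, 2 and 3, relative to the wild-type mean. The short members had 0.19, 0.58 and 0.28, and 0.17, 0.36 and -0.07. Both sets were highest in library 2 of each genotype. When the length trend of each library was taken out, an alternative chosen after the data were seen, the median over the members was 0.09. Ndufb3 kept a log2 fold change of 0.36 (adjusted p = 0.0287, edgeR), and Uqcrh was at 0.18 (adjusted p = 0.195). Whether the trend belongs to the libraries or to the hearts was not tested.

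Splicing of the members was read from PSI. Of 1121 member parts, 45 parts of 21 genes varied enough to be tested, and 0 were called in any of the 3 comparisons by limma (adjusted p under 0.05 with PSI differing by 0.1 or more). In all genes, 0.413% of 55648 parts were called for homozygous against wild-type, 0.0755% for heterozygous against wild-type and 0.264% for homozygous against heterozygous. At an unadjusted p under 0.05 (limma) there were 7, 3 and 5 of the 45 member parts. The share over all parts is not given here, so these counts cannot be set against a background. The member part with the smallest p in homozygous against wild-type hearts was in Ndufv3, an accessory subunit of the NADH-binding end of complex I that is known in a short and a long form.

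The long exon of Ndufv3 was included in few transcripts, with mean PSI of 0.0277, 0.0466 and 0.0854 for 0, 1 and 2 edited copies in part 8. Part 8 (788 bases, chr17:31746588-31747375 on build GRCm39) had a PSI of 0.0230, 0.0320 and 0.0280 in the wild-type libraries, 0.0449, 0.0455 and 0.0493 in the heterozygous ones and 0.0937, 0.0735 and 0.0890 in the homozygous ones. The 3 groups did not overlap. The difference of homozygous over wild-type was 0.058 (SE 0.0107; adjusted p = 0.0991, limma), which passes neither the p nor the size set for a call, and the adjusted p ran from 0.0279 to 0.370 over 19 alternatives, with 1 under 0.05. The differences of heterozygous over wild-type and of homozygous over heterozygous were 0.019 (adjusted p = 0.968) and 0.039 (adjusted p = 0.479). Inclusion reads of the part were at 5.16 ± 0.197 CPM (SD, n = 3) without the allele, 10.1 ± 2.21 CPM with 1 copy and 19.2 ± 1.12 CPM with 2 copies, while reads skipping it were at 29.1 ± 4.79, 32.8 ± 8.37 and 33.1 ± 6.75 CPM.

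Part 7 (304 bases, chr17:31746284-31746587), which adjoins it, followed the same order. Its PSI was 0.0183, 0.0225 and 0.0202 in the wild-type libraries, 0.0302, 0.0278 and 0.0368 in the heterozygous ones and 0.0660, 0.0421 and 0.0557 in homozygous libraries, again with no overlap (difference of homozygous over wild-type 0.034; adjusted p = 0.424, limma). Parts 7 and 8 together are as long as the 1092-base exon printed above, a multiple of 3. The other 11 parts of the gene had a PSI near 1 or under 0.01 in all libraries.

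**Figure D5:**
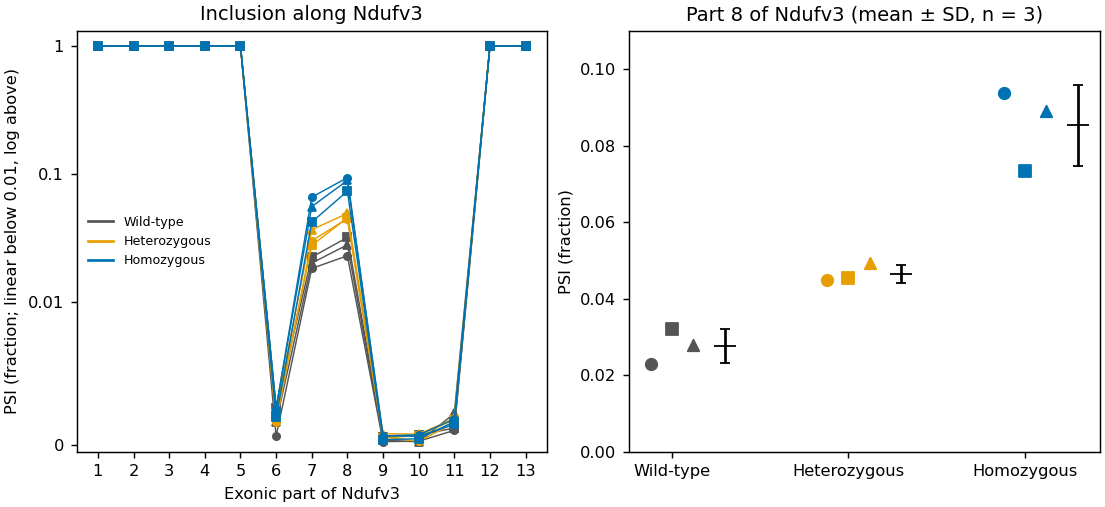
Left, PSI (fraction; linear below 0.01 and log above) of the 13 exonic parts of Ndufv3 in each library. Right, PSI of part 8 per library with the mean ± SD of each genotype; the wild-type libraries lie at 0.0230 to 0.0320, the heterozygous at 0.0449 to 0.0493 and the homozygous at 0.0735 to 0.0937.

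The plot along Ndufv3 places the difference between genotypes in parts 7 and 8. By comparison, the 37-base part of Atp5c1 (chr2:10061581-10061617), an exon of the ATP synthase gamma subunit that muscle is known to skip, had a PSI of 0.0211 to 0.0266 in all 9 libraries.

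The smallest p in the other comparisons fell on 2 different genes. Part 9 of Ndufs3, a core subunit of the matrix arm of complex I, had a PSI of 0.945, 0.941 and 0.940 in wild-type and 1.00, 0.999 and 1.00 in heterozygous libraries (adjusted p = 0.968, limma), while homozygous libraries were at 0.9496, 0.946 and 1.00. The libraries near 1.00 held 0 to 5 skipping reads and the others 383 to 442. Part 13 of Cox6b2 had a PSI of 0.0684, 0.0322 and 0.0403 in heterozygous and 0.201, 0.173 and 0.281 in homozygous libraries, a difference of 0.17 without overlap (adjusted p = 0.0723, limma). It rests on 13 to 63 reads per library. The wild-type libraries were at 0.0954, 0.0585 and 0.0717.

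Other genes of the same pathway were read from lists. Of 16 complex I assembly factors tested, Ndufaf8 rose in homozygous over wild-type hearts, at a log2 fold change of 0.43 (adjusted p = 0.0497), and the median of the list was 0.14. Of 13 factors for complexes II, III and V, Atpaf1, which helps assemble the F1 part of ATP synthase, fell from 95.5 ± 1.23 to 65.8 ± 4.21 CPM (SD, n = 3; log2 fold change -0.54; adjusted p = 0.00659). Of 17 complex IV factors, Cox19, a copper-related assembly factor, rose from 36.9 ± 2.89 to 70.6 ± 13.4 CPM (0.93; adjusted p = 0.0102). Atpaf1 was also lower in homozygous than in heterozygous hearts (adjusted p = 0.0469). All these are from edgeR's quasi-likelihood test. It called 4.39% of all genes for homozygous against wild-type and 0.948% for homozygous against heterozygous hearts, so 1 call in a list of this size is not set apart from the background.

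Lists without an assembly role were read against the same 4.39% of all genes called for homozygous over wild-type hearts. Of 71 mitochondrial ribosomal protein genes, Mrpl36 rose (0.43; adjusted p = 0.0255, edgeR), and the list median was 0.23. Of 13 mitochondrially encoded subunits listed, only 6 were measured, and none of these was called in this comparison (median 0.16). None was called either of 17 genes of the tricarboxylic acid cycle and pyruvate dehydrogenase (-0.20), 10 genes of electron carriage and nucleotide or phosphate exchange (-0.01) or 15 transcriptional regulators of mitochondrial genes (-0.18). In heterozygous over wild-type hearts 0 genes of any list were called. Cardiac stress genes, listed for comparison, had 6 of 9 called higher in homozygous over wild-type hearts, with a median of 1.499, and Acta1, the skeletal actin re-expressed in stressed heart, at 2.82 (adjusted p = 0.000171, edgeR). Of 9 cardiomyocyte markers tested, 7 had a positive log2 fold change and the rest did not, with a median of 0.32. The 2 called were Myl2 (0.79; adjusted p = 0.0437) and Tnnc1 (0.57; adjusted p = 0.0239), both higher (edgeR). No gene was called in the lists of other cell types.

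Of the 88 members, 5 were too low to be tested. Ndufb11b and Cox8c had no read in any library, and Ndufa11b, Ndufs6b and Cox6c2 stayed at or under 0.0622 CPM.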

How the data were processed

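Total RNA of mouse heart was sequenced in 9 libraries (paired ends, stranded kit, per the labels' protocols), 3 per genotype, grouped by sample title. The authors deposited 1 table of 480017 exonic parts on build GRCm39 with, per library, inclusion counts, exclusion counts (junction reads that skip a part) and PSI as a fraction from 0 to 1. Cutadapt 1.8 and Salmon 1.2.1 appear, without a role, in the submitters' processing notes; the counting tool, and whether counting used strand, are not given in the sources used here, so reads of overlapping antisense genes cannot be told apart. Each deposited PSI equalled inclusion counts over part length plus 148 bases, divided by itself plus exclusion counts over 148 bases (largest gap 5.0e-07). A read that spans several parts may be counted in each.

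For each gene identifier the inclusion counts were added up and fitted in edgeR 4.0.16 (filterByExpr, TMM, glmQLFit, glmQLFTest) over all 9 libraries and 22049 genes, with 6 residual degrees of freedom. PSI was fitted with limma 3.58.1 (eBayes with a variance trend) over 55648 parts with PSI in all libraries, 10 or more reads in each, and PSI reaching 0.05 or more in 1 library and 0.95 or less in 1 library. Calls needed a Benjamini-Hochberg adjusted p under 0.05, and for PSI a difference of at least 0.1. CPM use TMM library sizes. Levels per kb use constant parts, with 148 bases added to each part's length. Paralogue ratios were compared with exact permutation tests. Both fits were tested on simulated data. The labels give the 3 genotypes the same replicate numbers without saying what a number shares. In the deviations from the group means, same-numbered heterozygous and homozygous libraries correlated at 0.140, 0.270 and 0.594, each over the cut of 0.1 used for pairing. Libraries of different numbers also passed it, such as heterozygous 3 with homozygous 1 (0.242) and wild-type 1 with homozygous 2 (0.420). Deviations within a group of 3 are tied to each other, so the cut cannot establish a pairing. The main fits used no pairing, and a block by replicate number was an alternative. Wild-type libraries did not reach 0.1 in every pair, with heterozygous (lowest -0.0005) or homozygous ones (lowest -0.237), and were not taken as paired. Alternatives included DESeq2 1.42.0, other scalings and filters, and each library left out. R 4.3.3, Python 3.11.15, pandas 2.3.3, numpy 2.4.6, scipy 1.17.1 and matplotlib 3.10.9 were used.

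Dropped by name were 15 -ps names and 8 Ndufaf names, and joined identifiers, which hold 44018 parts, were kept apart. Members and lists were chosen with earlier results of these data known. Named members were the called ones, the smallest p of each complex without a call, the 2 highest per length of each complex and the paralogue pairs. Ndufs1, Ndufs3 (for expression), Ndufs7, Ndufs8, Ndufv1, Ndufv2, Sdhc and Sdhd were named after their values were seen. So were Uqcr10, Uqcrq, Ndufa7, Ndufa9, Ndufb4b, Ndufb4c, Cox7b2, Atp5g3 and, against wild-type, Atp5e. One member that the rule names is not reported here.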

Additional observations from a re-analysis of the deposited data

How the results depend on the processing

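The count of members called higher in homozygous over wild-type hearts, 2 by edgeR, moved most with the processing. The share of all genes called moved too, from 4.39%. The members called were 29 with no low-count filter (6.38% of all genes), 21 with DESeq2 (11.7%), 14 with only the 2 groups compared (6.33%), 4 with constant parts alone (mean PSI 0.95 or more; 5.62%) and 0 with the run of library numbers as a term (1.35%). With 1 library left out they ran from 0 to 13 (1.3% to 5.81% of all genes): 0 without wild-type library 2 or 3 or homozygous library 2 or 3, 1 without wild-type library 1 or heterozygous library 1, 4 without homozygous library 1, 9 without heterozygous library 2 and 13 without heterozygous library 3. Without wild-type library 1, heterozygous library 2 and homozygous library 2, left out together after the data were seen because their deviations went together, it was 0 (1.77% of all genes). The count called lower, 0, became 1 (Cox6b2) with no filter, with DESeq2, with constant parts alone and with the length trend taken out (5.23% of all genes). Homozygous against heterozygous, 1 was called higher and 1 lower with no filter (2.66% of all genes called) and 1 lower with DESeq2 (4.31%). Member parts called, 0, ran up to 2 (homozygous against wild-type) and 3 (homozygous against heterozygous) with 1 library left out, and those called without homozygous library 2 or 3 were in Cox6b2. The share of all parts called in those fits is not given here.

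With the replicate number as a block, 23 members were called higher and 1 lower in homozygous over wild-type hearts, and 2207 of all genes were called against 969. Same-numbered libraries had a median correlation of 0.140 in their deviations from the group means over 9 pairs, and libraries of different numbers one of -0.0887 over 18. The wild-type libraries were not taken as paired with the others, so these counts are an alternative only. Homozygous against heterozygous, where same-numbered libraries passed the cut of 0.1 but a pairing is not established, the block changed no call among the members.

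These log2 fold changes, all uncalled, changed sign. With the length trend taken out, homozygous over wild-type was -0.024 for Cox6a1, -0.16 for Cox7a1, -0.097 for Cox8a, -0.020 for Cyc1 and -0.069 for Uqcrc1. With the run as a term, Cox7a1 was at -0.14. With the 3 libraries left out together, Cyc1 was at -0.0098, Uqcrc1 at -0.077 and Sdhb (heterozygous over wild-type) at -0.0036. With 1 library left out, Uqcrc1 ran from -0.030 to 0.056, Cox7a1 from -0.040 to 0.15, Atp5b from -0.062 to 0.0019 and Sdhb (heterozygous over wild-type) from -0.0059 to 0.15. The median over members kept its sign in all 3 comparisons under all 21 alternatives, from 0.09 to 0.36 for homozygous over wild-type. The causes were not tested. With 3 libraries a group, the smallest exact permutation p is 0.1, and low genes such as Cox6b2 rest on few reads.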

Other observations

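The 4-base part 2 of Cox6c had a PSI of 1.00, 0.819 and 0.539 in wild-type libraries and between 0.440 and 0.553 in the other 6 (adjusted p = 0.444, limma, homozygous against wild-type). It was named after its values were seen, and the source of the difference was not tested.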
